A study of Mus musculus with 56 samples.

Results

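The CRISP genes of the mouse are Crisp1, Crisp2, Crisp3 and Crisp4, 4 of the 53379 Ensembl genes in the count table, chosen by their names. They were followed in 56 RNA-seq libraries from wild-type C57BL/6 male mice, in which age and region were the only labelled differences. Testis, efferent ductules, initial segment, caput epididymis, corpus epididymis, cauda epididymis and vas deferens were each taken at 3 months (young) and at 21 months (old), with 4 libraries in each of the 14 groups. The study took 4 mice per age and joined the left and right tissue of a mouse, so the 7 regions of one age came from the same few animals. The labels do not tie a library to a mouse, and the p-values therefore measure only the spread between these libraries, which may be partly technical.

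CRISP proteins are secreted, cysteine-rich proteins with a CAP domain, shared with a wider superfamily, and a cysteine-rich tail that is held to act on ion channels. CRISP2 is made by developing sperm in the testis and is kept in the acrosome and the tail, whereas CRISP1 and CRISP4 are made by the epididymal epithelium, depend on androgen and coat the passing sperm, where they are studied for their part in capacitation and in binding to the egg. CRISP3 of the mouse is known mainly from exocrine glands such as the salivary gland.

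Levels are given in CPM, counts divided by the library's total and set to one common total, with totals scaled by the trimmed mean of M-values (TMM) over all 56 libraries. The libraries held 11125279 to 20561967 counts, with a median of 16384049. In whole tissue, fewer cells of a type and less RNA per cell cannot be told apart. The labelled tissues carried their markers at both ages, since all 16 germ cell markers were highest in the testis, all 6 markers of the efferent ductule epithelium in the efferent ductules, and all 12 markers of epididymal principal cells in 1 of the 4 epididymal regions. Among these markers the study had named Prm2, Tnp1, Adam28, Rnase13, Spint3 and Wfdc9 as region-specific from the same libraries. Their place here was therefore no independent check. However, 4 libraries stood apart from their groups. The RNA Gm42418 took 49.7% of the second caput library at 3 months, against 1.27% to 36.0% of the others. The third library of the efferent ductules at 3 months held 365 CPM of the 16 germ cell markers, against 85.7 to 101 CPM in its group. Libraries 2 and 3 of the efferent ductules at 21 months held 1607 and 608 CPM of the 12 epididymal markers, against 1.32 and 6.28 CPM in the other two.

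Crisp1, Crisp2 and Crisp3 lie on the minus strand of one stretch of chromosome 17, and Crisp4 on the minus strand of chromosome 1 (GRCm38). Crisp3 (ENSMUSG00000025433) is at chr17:40221777-40242288, Crisp1 (ENSMUSG00000025431) at chr17:40293758-40319207 and Crisp2 (ENSMUSG00000023930) at chr17:40764020-40807003. The gap between Crisp3 and Crisp1 is 51.5 kb and that between Crisp1 and Crisp2 is 444.8 kb. Crisp4 (ENSMUSG00000025774) is at chr1:18115191-18145902. The 250 bases before each RefSeq start (GRCm38.p6, minus strand, written 5′ to 3′ in the direction of the gene) are shown because the levels of the 4 genes differ widely and the windows of Crisp1 and Crisp3 do not. The windows are chr17:40319208-40319457 for Crisp1, chr17:40242289-40242538 for Crisp3, chr17:40794147-40794396 for Crisp2 and chr1:18145903-18146152 for Crisp4. None of them overlaps an annotated exon, and that of Crisp2 lies inside the longer gene model of GENCODE. In the lines of Crisp1 and Crisp3, capitals mark the 11 bases that differ between them.
Crisp1: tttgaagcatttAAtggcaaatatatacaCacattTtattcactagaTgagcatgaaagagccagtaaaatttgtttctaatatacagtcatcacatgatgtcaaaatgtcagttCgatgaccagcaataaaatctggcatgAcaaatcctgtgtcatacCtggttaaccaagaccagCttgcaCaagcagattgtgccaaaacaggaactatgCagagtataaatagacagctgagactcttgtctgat
Crisp3: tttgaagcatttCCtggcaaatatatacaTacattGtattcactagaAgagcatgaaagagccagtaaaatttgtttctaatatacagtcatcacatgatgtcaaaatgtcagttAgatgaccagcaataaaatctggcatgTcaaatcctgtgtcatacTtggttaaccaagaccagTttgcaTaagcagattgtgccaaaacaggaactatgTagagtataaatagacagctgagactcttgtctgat
In the lines of Crisp2 and Crisp4, capitals mark letters of the TATA box (TATAAA on either strand) or of the half-site of steroid hormone response elements (AGAACA on either strand).
Crisp2: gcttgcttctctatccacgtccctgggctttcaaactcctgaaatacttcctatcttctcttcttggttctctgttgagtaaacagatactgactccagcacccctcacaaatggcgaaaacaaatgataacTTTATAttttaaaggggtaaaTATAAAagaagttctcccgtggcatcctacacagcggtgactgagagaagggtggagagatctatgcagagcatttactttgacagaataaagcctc
Crisp4: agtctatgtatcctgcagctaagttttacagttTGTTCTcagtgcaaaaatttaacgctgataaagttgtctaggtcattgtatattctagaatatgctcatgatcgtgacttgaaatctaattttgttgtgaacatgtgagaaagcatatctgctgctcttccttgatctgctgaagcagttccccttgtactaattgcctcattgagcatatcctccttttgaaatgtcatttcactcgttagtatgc

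The windows of Crisp1 and Crisp3 were identical at 239 of 250 positions (95.6%), whereas the other 5 pairs were identical at 24% to 28%. Crisp1 and Crisp3 both held TATAAA from 31 to 26 bases before the start, so the 11 differing bases lie outside it. Crisp2 held TATAAA from 97 to 92 bases before the start and its reverse complement from 118 to 113 bases before it. Crisp4 held no TATAAA and had the half-site, read as TGTTCT, from 217 to 212 bases before the start. Of 32851 windows of this length, 12.4% held TATAAA and 16.1% AGAACA on either strand, so neither is rare. The full element, the half-site and its reverse complement set 3 bases apart (0.00913% of the windows), and the letters TGACGT of a cAMP response element (6.47%) were in none of the 4 windows. The reference transcripts of Crisp1 and Crisp3 were identical at 91.1% of 1397 aligned bases, and those of the other pairs at 59.9% to 66.2%. Of the 1367 stretches of 50 bases in the Crisp1 transcript, 33 (2.41%) also occurred in Crisp3, and no stretch of 100 bases did.

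Crisp2, the testicular member, was highest in the testis at both ages. At 3 months it was read at 1717, 1829, 1735 and 1739 CPM in the 4 testis libraries, a mean of 1755 ± 50.4 CPM (SD, n = 4). At 21 months the 4 values were 1644, 1694, 1620 and 1650 CPM, with a mean of 1652 ± 31.0 CPM (SD, n = 4). All other regions were far lower. The cauda came next, where young mice had 69.5 ± 19.1 CPM (SD, n = 4) and old mice 105 ± 38.2 CPM (SD, n = 4), so that the testis had 25.3 and 15.7 times its level. The corpus had 33.1 ± 8.60 CPM at 3 months and 37.2 ± 13.3 CPM at 21 months, and the caput 11.2 ± 3.65 and 16.6 ± 2.46 CPM (SD, n = 4 each). Efferent ductules, initial segment and vas deferens had means of 1.86 to 8.22 CPM. Along the epididymis the means were lowest in the initial segment and highest in the cauda at both ages, and the vas deferens was below the cauda.

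Among neighbours in this order, the testis was above the cauda by 4.66 on the log2 scale at 3 months (SE 0.45, adjusted p = 2.02e-09 in edgeR's quasi-likelihood test with Benjamini-Hochberg adjustment, a contrast in which 75.6% of all genes passed). At 21 months the difference was 3.92 (SE 0.31, edgeR adjusted p = 1.42e-11, 74.8% of all genes). The cauda was above the corpus at 21 months by 1.42 (SE 0.31, edgeR adjusted p = 0.000862, 26.8% of all genes), whereas at 3 months the difference of 1.07 (SE 0.46) did not pass (edgeR adjusted p = 0.0997, 23.4% of all genes). The corpus was above the caput at both ages (1.56 and 1.13 on the log2 scale, edgeR adjusted p = 0.0138 and 0.00654, 32.7% and 32.3% of all genes). At 3 months the caput, initial segment, efferent ductules and vas deferens formed a run in which no neighbouring pair passed the test (edgeR adjusted p of 0.258 to 0.962). The ends of this run did differ, with -1.30 for the vas deferens against the caput (SE 0.53, edgeR adjusted p = 0.0469, 43.4% of all genes). Of the 21 pairs of regions, 15 passed at 3 months and 20 at 21 months, while over the 21 pairs together 48.9% and 48.5% of all tests across genes did.

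Outside the testis, Crisp2 was set beside the RNA of germ cells. The 16 germ cell markers, among them the protamines Prm1 and Prm2 that pack sperm DNA and the sperm tail gene Odf1, summed to 821 ± 202 CPM in the cauda at 3 months and 114 ± 48.9 CPM in the initial segment (SD, n = 4 each). Set against its own testis mean, Crisp2 stood at 3.96% ± 1.09 (SD, n = 4) in the cauda at 3 months, where the median of the 16 markers was 1.47% (range 0.324% to 20%). At 21 months it stood at 6.38% ± 2.31 (SD, n = 4), with a marker median of 1.52% (range 0.272% to 16.9%). Crisp2 was above 11 of the 16 markers in the cauda at 3 months and above 13 at 21 months, and Odf1 and Oaz3 were the markers with the largest share. Its share was also above the marker median in the caput, corpus and vas deferens at both ages and in the initial segment at 21 months (above 9 to 13 markers). It was below the median in the efferent ductules, with 0.437% against 0.606% at 3 months and 0.350% against 0.523% at 21 months, and in the initial segment at 3 months, with 0.468% against 0.550% (above 5 or 6 markers). In the third library of the efferent ductules at 3 months, which had the most germ cell RNA of its group, Crisp2 was at 20.7 CPM, against 4.09, 2.74 and 3.09 CPM in the other three. Per 100 CPM of the summed markers, that library had 5.68 CPM of Crisp2 and the other three 3.20 to 4.04 CPM. At the other end, the second old library of the cauda had 29.2 CPM of Crisp2 per 100 CPM of the markers, against 9.19 to 11.8 CPM in the other three, and it was also the cauda library with the most Crisp1 (31409 CPM) and Crisp4 (22.8 CPM). By this measure young and old libraries were apart in the caput, from 3.94 to 6.90 CPM at 3 months and from 9.11 to 12 CPM at 21 months, and in the cauda, where the young libraries had 7.79 to 9.09 CPM and the old ones 9.19 CPM or more. They overlapped in the other 5 regions. In the caput the markers moved as well, as Prm1 and Prm2 fell and Pgk2 rose (5.05% of all genes passed downward there and 3.09% upward). The marker median there was 0.578% of the testis at 3 months and 0.310% at 21 months, so the ratio holds changes of the markers too. Of all single genes, 8.26% were higher at 21 months without overlap in the caput and 3.84% in the cauda. The part of testicular cells and sperm RNA in the levels outside the testis was not tested.

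**Figure D1:**
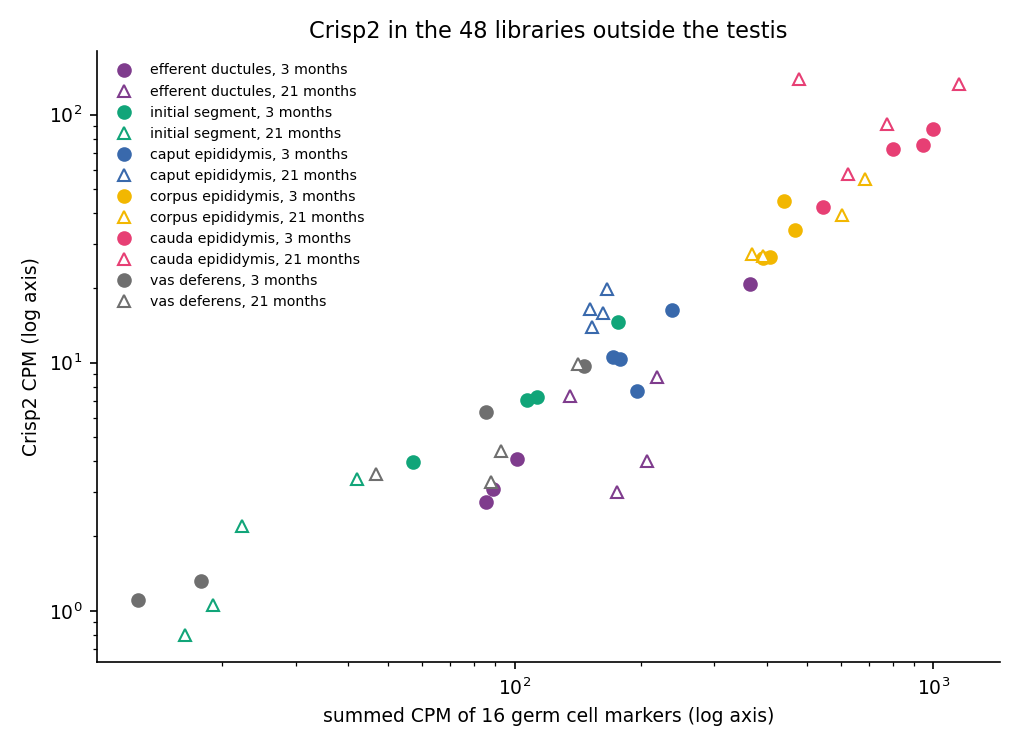
Crisp2 (vertical axis, CPM, log scale) against the summed CPM of 16 germ cell markers (horizontal axis, log scale) in the 48 libraries outside the testis, with filled circles for 3 months, open triangles for 21 months and colours for regions. The libraries of the initial segment at 21 months lie at the lower left (0.802 to 3.40 CPM of Crisp2) and those of the cauda at the upper right (42.4 to 140 CPM).

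Crisp1, the main androgen-dependent CRISP of the epididymis, was the most abundant of the 4 genes and was highest in the distal tract. In the cauda it was read at 15962, 16552, 9544 and 17857 CPM at 3 months and at 14410, 31409, 12609 and 16433 CPM at 21 months. The means were 14978 ± 3708 and 18715 ± 8606 CPM (SD, n = 4 each), and the second old library alone was above all the others. Crisp1 took 1.39% ± 0.296 of all counts in the cauda at 3 months and 1.73% ± 0.787 at 21 months (SD, n = 4 each). In the corpus the young libraries had 9125, 11639, 11427 and 15675 CPM and the old ones 7808, 7198, 6933 and 8787 CPM. The vas deferens followed with 7442 ± 291 CPM in young and 6355 ± 1683 CPM in old mice (SD, n = 4 each). These 3 regions were far above the proximal ones. The initial segment had 534 ± 227 and 850 ± 81.2 CPM and the caput 245 ± 145 and 639 ± 338 CPM at 3 and 21 months (SD, n = 4 each), so the cauda had 61.1 times the level of the caput at 3 months and 29.3 times at 21 months. The testis held 13 reads of Crisp1 at 3 months and 7 at 21 months over its 4 libraries, or 0.181 ± 0.141 and 0.0952 ± 0.0519 CPM (SD, n = 4 each).

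The order of the regions for Crisp1 was the same at both ages, from the cauda through corpus, vas deferens, initial segment, caput and efferent ductules to the testis. Among the top 3 regions no neighbours in this order were separated at either age, although the cauda was above the vas deferens at 3 months by 1.0 on the log2 scale (SE 0.31, edgeR adjusted p = 0.0125, 36.3% of all genes). The cauda exceeded the corpus by 0.32 on the log2 scale at 3 months (SE 0.31, edgeR adjusted p = 0.523) and by 1.2 at 21 months (SE 0.57, edgeR adjusted p = 0.136). The corpus exceeded the vas deferens by 0.68 at 3 months (SE 0.31, edgeR adjusted p = 0.0851, 41.9% of all genes) and by 0.25 at 21 months (SE 0.57, edgeR adjusted p = 0.808, 40.1% of all genes). The step from the vas deferens down to the initial segment passed at both ages, with 3.81 (SE 0.31, edgeR adjusted p = 1.19e-10, 42.5% of all genes) and 2.80 (SE 0.57, edgeR adjusted p = 0.000445, 38.5% of all genes). The initial segment was above the caput at 3 months by 1.13 (SE 0.32, edgeR adjusted p = 0.00750, 27.4% of all genes), although the libraries of both overlapped, and at 21 months the difference of 0.50 (SE 0.58) did not pass (edgeR adjusted p = 0.577, 29.7% of all genes). In all, 19 of 21 pairs passed at 3 months and 17 at 21 months.

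Crisp4, the other epididymal member and the one that lies apart on chromosome 1, ran in the opposite direction, from the initial segment down to the cauda. In the initial segment the young libraries had 237, 279, 250 and 200 CPM and the old ones 228, 222, 241 and 258 CPM, means of 241 ± 33.0 and 237 ± 15.9 CPM (SD, n = 4 each). The caput had 119 ± 39.4 CPM in young and 167 ± 21.7 CPM in old mice, and the corpus 104 ± 25.9 and 66.4 ± 10.4 CPM (SD, n = 4 each). Crisp4 fell to 9.52 ± 2.54 and 15.2 ± 5.32 CPM (SD, n = 4 each) in the cauda. It was then nearly lost, with 2 reads in the vas deferens at 3 months and 9 at 21 months, and 1 read in the testis at each age. No read was found in the 4 young libraries of the efferent ductules, where a floor of 3 counts over the group allows up to 0.0396 CPM, so the young initial segment was at least 6096-fold higher.

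At 3 months Crisp4 was higher in the initial segment than in the caput by 1.01 on the log2 scale (SE 0.19, edgeR adjusted p = 0.000185), and the caput and corpus differed by 0.20 (SE 0.20, edgeR adjusted p = 0.479). At 21 months the initial segment and caput did not pass (0.61, SE 0.36, edgeR adjusted p = 0.215), although their libraries did not overlap, and the caput was above the corpus by 1.36 (SE 0.36, edgeR adjusted p = 0.00414). The step from the corpus to the cauda passed at both ages, with 3.44 (SE 0.21, edgeR adjusted p = 1.07e-12) and 2.20 (SE 0.37, edgeR adjusted p = 4.59e-05). Of the 21 pairs, 17 passed at 3 months and 19 at 21 months.

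Crisp3 was close to the limit of detection everywhere, and its highest group mean was 1.55 ± 0.550 CPM (SD, n = 4) in the cauda at 21 months. The 4 libraries of that group had 1.2, 2.26, 1.04 and 1.70 CPM, and those of the cauda at 3 months 1.29, 0.572, 0.530 and 1.08 CPM. In the vas deferens the young libraries had 1.48, 1.13, 2.03 and 1.12 CPM and the old ones 1.62, 0.404, 1.69 and 0.913 CPM. The 56 libraries together held 465 reads of Crisp3 against 4431128 of Crisp1. The corpus was above the caput at 3 months by 1.58 on the log2 scale (SE 0.59, edgeR adjusted p = 0.0290) but at 21 months the difference was 0.72 (SE 0.61, edgeR adjusted p = 0.394). The vas deferens was above the corpus at 21 months by 1.77 (SE 0.50, edgeR adjusted p = 0.00323), with a difference of 1.02 at 3 months (SE 0.44, edgeR adjusted p = 0.0603). At both ages vas deferens and cauda were not separated from each other (edgeR adjusted p = 0.179 and 0.554, 36.3% and 35.1% of all genes). Of the 21 pairs, 15 passed at 3 months and 16 at 21 months.

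**Figure D2:**
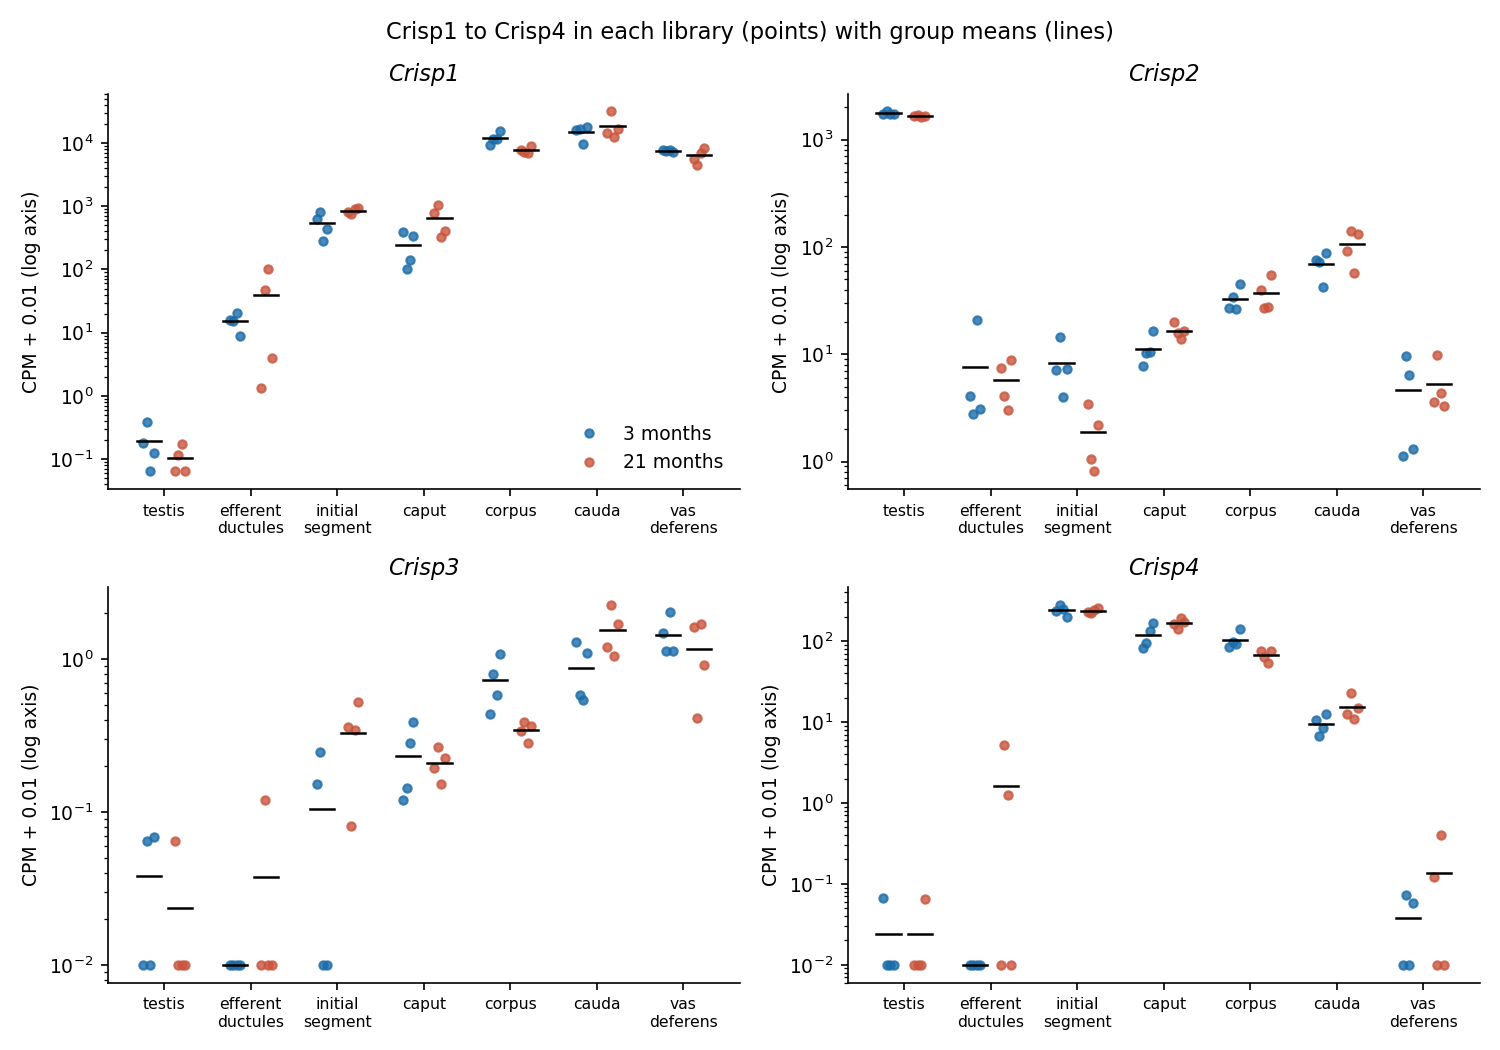
CPM + 0.01 (log axis) of Crisp1, Crisp2, Crisp3 and Crisp4 in each of the 56 libraries, with 3 months in blue, 21 months in red and black lines for the means of 4 libraries. Crisp2 is highest in the testis (1755 and 1652 CPM), Crisp4 in the initial segment (241 and 237 CPM) and Crisp1 in the cauda (14978 and 18715 CPM), while no group mean of Crisp3 exceeds 1.55 CPM.

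Because Crisp1 and Crisp3 are so alike in sequence, Crisp3 was also expressed per 10000 counts of Crisp1 in the same library, in the 3 regions with the most reads of both. The vas deferens was not the highest of all regions, as the caput had means of 11.6 at 3 months and 3.65 at 21 months, each from 14 reads of Crisp3 in all, and the old initial segment 3.64 from 20 reads. In the corpus this ratio was 0.468, 0.680, 0.499 and 0.690 in the young libraries and 0.425, 0.523, 0.395 and 0.404 in the old ones. For the cauda it was 0.810, 0.345, 0.556 and 0.607 in young and 0.835, 0.721, 0.828 and 1.03 in old libraries. The libraries of the vas deferens had 1.94, 1.53, 2.63 and 1.58 when young and 2.91, 0.896, 2.41 and 1.09 when old. At 3 months the vas deferens lay above the corpus by 1.34 and above the cauda by 1.34, with no overlap of libraries, and at 21 months it lay above the corpus by 1.39, again without overlap. Each of these 3 differences had p = 0.0286 in a two-sided exact permutation test, the smallest p that 4 against 4 libraries allow, and 0.0381 after Benjamini-Hochberg adjustment over the 4 comparisons made. The difference from the cauda at 21 months was 0.974 (exact p = 0.0571, adjusted 0.0571). How many Crisp3 counts came from Crisp1 reads was not tested.

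**Figure D3:**
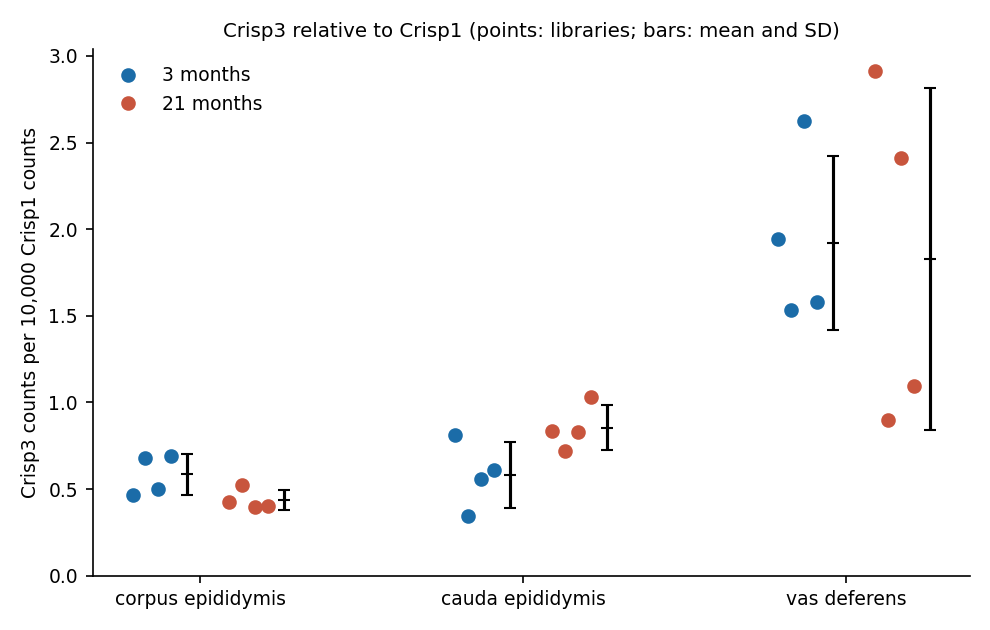
Counts of Crisp3 per 10,000 counts of Crisp1 (vertical axis) in the corpus, cauda and vas deferens at 3 months (blue) and 21 months (red), with points for libraries and bars for mean and SD. The vas deferens had means of 1.92 and 1.83, against 0.437 to 0.854 in the corpus and cauda.

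Per kilobase of exon (the union of the annotated exons), Crisp1 had the highest mean of the family in every region but the testis. In the old efferent ductules that mean rests on libraries 2 and 3, which stood apart. Libraries 1 and 4 there had 0.929 and 2.83 CPM per kb of Crisp1 and more of Crisp2 (2.61 and 3.10 CPM per kb). In the cauda it reached 10578 ± 2619 CPM per kb at 3 months and 13217 ± 6078 CPM per kb at 21 months (SD, n = 4 each), against 24.7 and 37.4 for Crisp2, 3.48 and 5.56 for Crisp4 and 0.614 and 1.10 for Crisp3. In the initial segment at 3 months Crisp1 had 377 ± 161 and Crisp4 88.1 ± 12 CPM per kb (SD, n = 4 each). In the testis Crisp2 had 623 ± 17.9 CPM per kb at 3 months (SD, n = 4), against 0.128 for Crisp1, 0.0200 for Crisp3 and 0.00523 for Crisp4. Levels per kilobase rest on the annotated exons, of which 1416 bases belong to Crisp1, 2818 to Crisp2, 1417 to Crisp3 and 2737 to Crisp4.

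The study asked of a region-specific gene a 4-fold difference from the 6 remaining regions at p below 0.05. It does not say whether those regions were pooled or p was adjusted, and here the pooled mean and the unadjusted p were taken. On this reading each member was specific to 1 region at each age. Crisp2 was specific to the testis, where 28.8% of all genes met the rule at 3 months and 27.6% at 21 months. Crisp4 was specific to the initial segment (2.48% and 4.23% of all genes) and Crisp1 to the cauda (2.35% and 1.99%). Crisp3 met the rule in the vas deferens at 3 months (2.9% of all genes) and in the cauda at 21 months (1.99%). No member met it in the efferent ductules (5.72% of all genes at 3 months and 5.24% at 21 months), the caput (3.11% and 1.77%) or the corpus (2.7% and 2.91%), and none in the old vas deferens (3.99%). When 4-fold was asked against every single region rather than their pool, only the 2 calls of Crisp2 in the testis remained of the 8.

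The genes whose levels ran most closely with each member were found by Pearson's correlation of log2(CPM + 1) over the 56 libraries, among 17144 protein-coding genes. The libraries share regions, so the values describe the pattern along the tract and no p is given. For Crisp2 they were Pgk2 (r = 0.993), which encodes the phosphoglycerate kinase of sperm and is also the gene next to Crisp3 on chromosome 17, Cabs1 (r = 0.992) and 4933415F23Rik (r = 0.991). For Crisp1 they were Ap1s3, an adaptor subunit of vesicle transport (r = 0.975), Kdsr, an enzyme of sphingolipid synthesis (r = 0.971), and the adhesion receptor Adgrg6 (r = 0.964). Those of Crisp4 were Rcn2 (r = 0.967), the cyclic nucleotide-gated channel gene Cnga2 (r = 0.960) and the peroxiredoxin Prdx6 (r = 0.950), and those of Crisp3 were Xk (r = 0.896), Khdc1a (r = 0.887) and Lifr (r = 0.875). With Spearman's correlation none of the 3 genes named for Crisp3 or Crisp4 was among the leading 3. Between the members, r was 0.767 for Crisp1 and Crisp3, 0.427 for Crisp1 and Crisp4, and -0.430 for Crisp1 and Crisp2, whose Spearman correlation was 0.0188.

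Other annotated genes around the members were also read. Within 200 kb of Crisp4, 4 of 10 other annotated genes reached a mean of 1 CPM in a group. These were the beta-defensin genes Defb41 (highest in the initial segment at 3 months, 305.0 CPM) and Defb18 (highest in the caput at 21 months, 164 CPM), the pseudogene Defb44-ps (2.34 CPM in the cauda at 21 months) and Gm17837, which lies within Defb41 so that their reads are uncertain, on the same strand. Between and within 200 kb of the members on chromosome 17, 4 of 16 other genes reached 1 CPM. Pgk2 was highest in the testis at 3 months (672 CPM), as was Cenpq (18.5 CPM), while 9130008F23Rik and Mut reached 9.02 and 48.7 CPM in the corpus and cauda at 21 months. Cenpq and Mut overlap on opposite strands, and whether the counting used strand is not given in the sources used here, so their values are uncertain. The pheromone genes Esp1, Esp3, Esp4, Esp6 and Esp8, which lie between Crisp1 and Crisp2, held 0 to 9 reads each over all 56 libraries.

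The ages were then compared within each region, to ask whether the CRISP genes changed in old mice. Of 28 combinations of gene and region, 25 had at least 10 counts and could be tested, and 4 passed at an adjusted p under 0.05. They were Crisp1 and Crisp2 in the initial segment, where 6.35% of all genes passed, and Crisp1 and Crisp4 in the corpus, where 2.97% did. No member passed in the testis (0.563% of all genes passed), efferent ductules (6.99%), caput (8.14%), cauda (0.128%) or vas deferens (19.9%). The study's rule for age set p under 0.05 beside 1.5-fold or more and does not say whether p was adjusted. Read with an unadjusted p, 10 combinations passed it, the additional ones being Crisp4 in the efferent ductules, Crisp1 in the caput, Crisp3 in the corpus and Crisp2, Crisp3 and Crisp4 in the cauda. The share of all genes passing that rule was 12.8% for the efferent ductules, 13.2% for the caput, 6.84% for the corpus and 8.3% for the cauda, with 11.5% for the initial segment, 2.71% for the testis and 17.8% for the vas deferens.

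**Figure D4:**
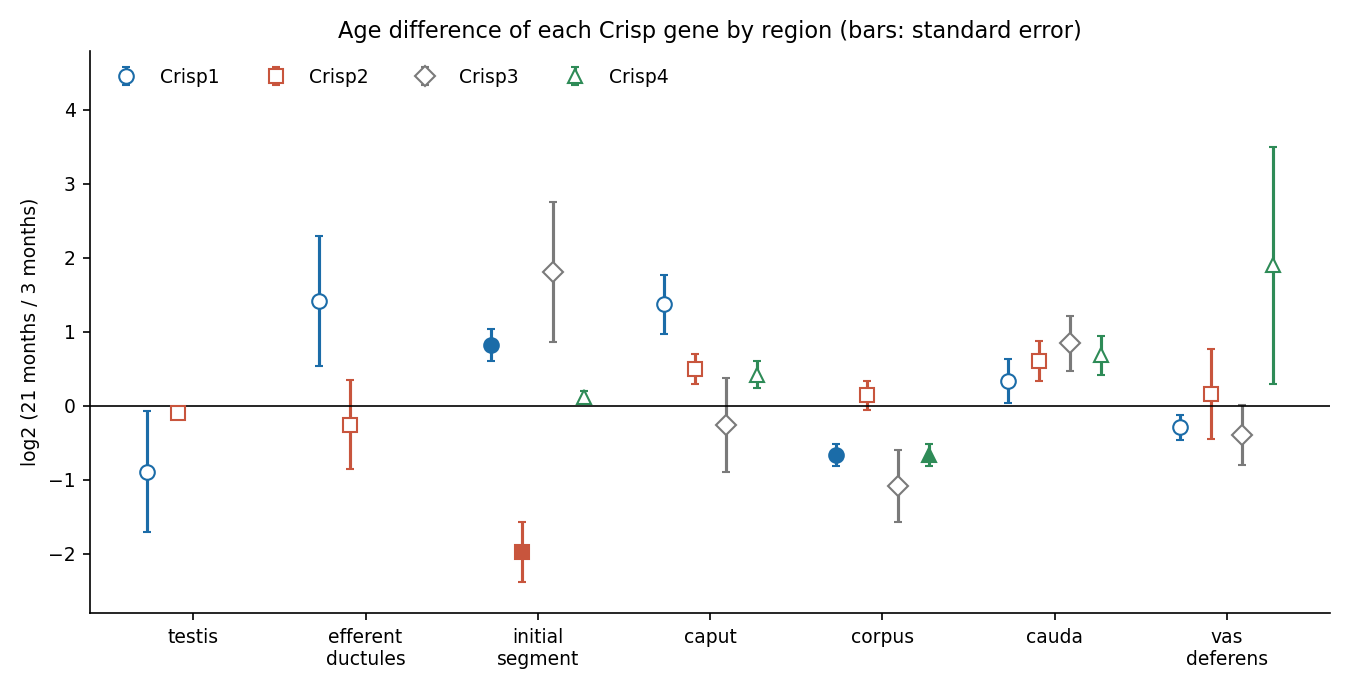
Fitted log2 ratio of 21 to 3 months (vertical axis) for each Crisp gene in each region, with standard errors as bars and filled symbols for an adjusted p under 0.05. Crisp1 and Crisp2 of the initial segment (0.82 and -1.97) and Crisp1 and Crisp4 of the corpus (-0.66 each) are filled, and Crisp4 in the efferent ductules is left out because the young group had no read.

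In the initial segment Crisp1 rose and Crisp2 fell with age. Crisp1 was read at 624, 801, 279 and 430 CPM at 3 months and at 796, 766, 910 and 929 CPM at 21 months. On the scale of the 56 libraries the ages overlapped by 1 young library, whereas on the scale of the 8 libraries of the region they did not (5.99% of all genes were lower and 6.42% higher without overlap). The fitted change was 0.82 on the log2 scale (SE 0.21, edgeR adjusted p = 0.0345), in a region where 3.35% of all genes passed upward. Crisp2 was read at 7.07, 14.5, 3.97 and 7.29 CPM at 3 months and at 3.40, 1.06, 0.802 and 2.19 CPM at 21 months, so every old library was below every young one. It fell by 1.97 on the log2 scale (SE 0.41, edgeR adjusted p = 0.00963, with 3.01% of all genes passing downward). Crisp4, which has its highest level here, did not pass (0.12 on the log2 scale, SE 0.08, edgeR adjusted p = 0.486), and Crisp3 had 6 reads at 3 months and 20 at 21 months.

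Germ cell RNA moved in the same direction as Crisp2 in the initial segment. Of the 16 germ cell markers 12 fell and none rose, with a median change of -2.14 on the log2 scale against -0.01 over all genes tested there. Their sum ran from 57.3 to 177 CPM at 3 months and from 16.3 to 42.0 CPM at 21 months, and none of the 16 was at 0. Prm1 fell by 2.68 (SE 0.41, edgeR adjusted p = 0.00148) and Tnp2 fell by 3.34 (SE 0.50, edgeR adjusted p = 0.000989). Per 100 CPM of the summed markers, Crisp2 was at 6.43 to 8.23 CPM in the young libraries and at 4.92 to 9.80 CPM in the old ones, which overlap. Markers of other cells also moved in the initial segment. Of the 12 epididymal principal cell markers Spint3 alone passed, upward, and their median was -0.12 on the log2 scale. Of 6 tested B cell and plasma cell markers Ighm and Jchain rose, and the sum of all 8 was 6.78 to 8.79 CPM at 3 months and 17.7 to 130 CPM at 21 months. The smooth muscle genes Myh11 and Acta2 fell, and the sum of the 6 listed ran from 2702 to 3154 CPM at 3 months and from 1900 to 2275 CPM at 21 months. The part of these cells in the changes of Crisp1 and Crisp2 was not tested. The call of Crisp2 was lost when the libraries numbered 2 were left out at both ages (edgeR adjusted p = 0.117, with values from 6.44e-06 to 0.117 over all alternatives). The call of Crisp1 was kept in 12 of 21 alternatives, with adjusted p from 6.11e-05 to 0.536. By the same edgeR test it was lost without young library 4 (0.0730), without old library 2, 3 or 4 (0.0699, 0.0780 and 0.0937), without the libraries numbered 3 or 4 at both ages (0.0714 and 0.158), with edgeR's own filter on low counts (0.0541) and in one fit of all 56 libraries (0.536), and also by DESeq2 (0.0629).

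In the corpus Crisp1 and Crisp4 both fell. Crisp1 changed by -0.66 on the log2 scale (SE 0.15, edgeR adjusted p = 0.0193), from 11967 ± 2722 to 7682 ± 823 CPM (SD, n = 4 each), and every old library (6933 to 8787 CPM) was below every young one (9125 to 15675 CPM). Crisp4 was read at 85.5, 96.2, 90.8 and 142 CPM at 3 months and at 74.6, 63.1, 53.1 and 74.7 CPM at 21 months, again without overlap. Its fitted change was -0.66 (SE 0.15, edgeR adjusted p = 0.0200). In this region 1.47% of all genes passed downward, and 5.26% were lower at 21 months with no overlap. Crisp3 had 0.427, 0.792, 0.571 and 1.08 CPM in the young and 0.332, 0.376, 0.274 and 0.355 CPM in the old libraries, which did not overlap either, but its 41 and 18 reads gave a change of -1.08 (SE 0.49) that did not pass (edgeR adjusted p = 0.251). Crisp2 overlapped between the ages in the corpus.

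Beside these changes, other markers of the corpus moved in part. Of the 12 epididymal principal cell markers only Adam7 passed, downward, and the median of the 12 was -0.45 on the log2 scale against -0.01 over all genes. The sum of the 12 ran from 4166 to 6015 CPM at 3 months and from 3178 to 4090 CPM at 21 months, with none at 0. Gm42418 took 10.4% to 26.3% of the counts at 3 months and 17.0% to 36.0% at 21 months. Of the 8 B cell and plasma cell markers 3 rose and none fell (1.5% of all genes passed upward), and their sum ran from 29.3 to 54.3 CPM at 3 months and from 52.3 to 183 CPM at 21 months. The part of these shifts in the lower Crisp1 and Crisp4 was not tested. Without Gm42418 in the table the changes were -0.74 for Crisp1 (edgeR adjusted p = 0.0132) and -0.76 for Crisp4 (edgeR adjusted p = 0.0231). Both calls were lost without the second old library (edgeR adjusted p = 0.0832 for Crisp1 and 0.0696 for Crisp4), without the libraries numbered 2 (0.159 and 0.107) or 3 (0.0759 and 0.0680) at both ages, and in one edgeR fit of all 56 libraries (0.697 and 0.477). That of Crisp4 was also lost without the third old library (0.0590). Of 21 alternatives, 17 kept the call of Crisp1 and 16 that of Crisp4, and the edgeR adjusted p was as low as 2.74e-05 and 2.96e-07.

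In the caput Crisp1 had 396, 103, 141 and 340 CPM at 3 months and 781, 1050, 326 and 400 CPM at 21 months, with 2 young libraries above the lowest old one. The difference of 1.37 on the log2 scale (SE 0.40) just missed the threshold (edgeR adjusted p = 0.0536). It passed in 6 of 21 alternatives, among them without the first young library (0.0152) and without Gm42418 (0.0461), with values from 0.000420 to 0.286 over all alternatives. Without the second young library, which Gm42418 fills to 49.7%, the difference was 1.16 (edgeR adjusted p = 0.115). In the same region Crisp4 differed by 0.42 (SE 0.18, edgeR adjusted p = 0.168) and Crisp2 by 0.50 (SE 0.20, edgeR adjusted p = 0.144), and neither passed. In the cauda all 4 genes had higher means at 21 months, by 0.33 on the log2 scale for Crisp1, 0.61 for Crisp2, 0.85 for Crisp3 and 0.68 for Crisp4, but none passed (edgeR adjusted p of 0.398 to 0.712) and the libraries of the ages overlapped for each. The difference of Crisp1 in the cauda turned to -0.033 without the second old library.

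In the efferent ductules the old libraries split. Crisp1 was at 16.1, 15.3, 20.6 and 8.82 CPM at 3 months and at 1.32, 48, 102 and 4.01 CPM at 21 months. Crisp4 had no read in the young group, 93 and 20 reads (5.14 and 1.23 CPM) in old libraries 2 and 3 and none in the other two. The 12 epididymal principal cell markers were at 1607 and 608 CPM in the same 2 old libraries and at 1.32 and 6.28 CPM in the other two, while the young group had 0.760 to 16.7 CPM. Of these 12 markers 5 rose with age in the efferent ductules, among them Lcn8 and Lcn9, lipocalin genes of the proximal epididymis, and none fell, where 4% of all genes passed upward and 2.98% downward. The sum of the 6 markers of the efferent ductule epithelium was 3587 to 4062 CPM in all 4 old libraries. Among these 6, 1 rose and 1 fell with age, the called genes being Foxj1 and Lrp2. Gm42418 took 4.93% to 22.2% of the counts in the old libraries of this region and 1.27% to 3.29% in the young ones. The part of epididymal tissue in the Crisp1 and Crisp4 counts of old libraries 2 and 3 was not tested. With all libraries neither Crisp1 (log2 difference 1.42, SE 0.88, edgeR adjusted p = 0.351) nor Crisp2 (-0.25, SE 0.60, edgeR adjusted p = 0.833) passed. Without these 2 libraries and the third young library with its germ cell RNA, the log2 difference was -2.24 for Crisp1 and 1.38 for Crisp2, both of the opposite sign, and Crisp4 had no read at either age. The libraries left out were chosen after their values were seen and are those with the most Crisp1 at 21 months and the most Crisp2 at 3 months, so these differences are given with no test.

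**Figure D5:**
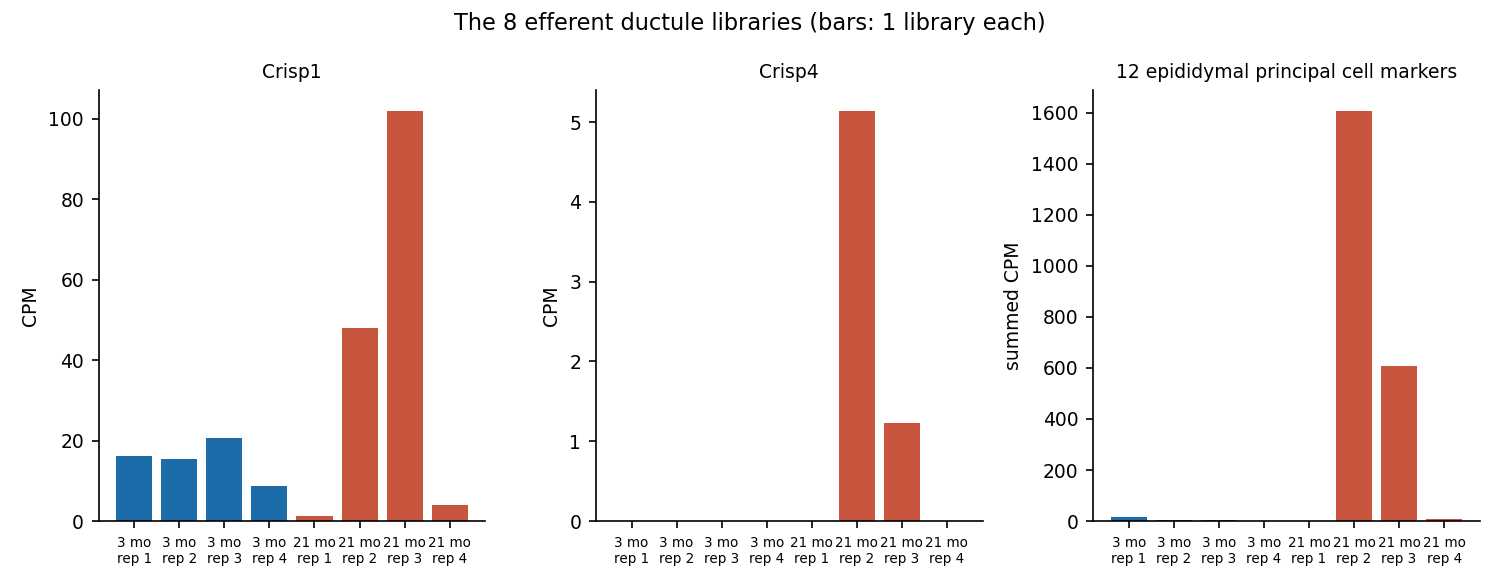
Crisp1 (left) and Crisp4 (middle) in CPM, and the summed CPM of 12 epididymal principal cell markers (right), in the 8 efferent ductule libraries, 1 bar a library, with 3 months in blue and 21 months in red. In the old group all 3 measures are high in libraries 2 and 3 (48 and 102 CPM of Crisp1) and low in the other two.

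In the vas deferens and the testis no member passed. Crisp1 of the vas deferens had 7624, 7342, 7723 and 7079 CPM at 3 months and 5562, 4502, 6996 and 8361 CPM at 21 months, so the spread widened from an SD of 291 to 1683 CPM. Other cell types shifted strongly in the old vas deferens, as all 8 B cell and plasma cell markers and all 5 seminal vesicle markers that could be tested rose, in a region where 11.4% of all genes passed upward. Of the 12 epididymal principal cell markers 11 could be tested, of which 4 rose and none fell, with a median log2 change of 1.71. The smooth muscle markers (4 of 6) and the tested neutrophil granule markers (3 of 3) rose as well. The seminal vesicle sum ran from 22.5 to 1930 CPM at 21 months against 3.13 to 4.86 CPM at 3 months, where Svs3a and Svs6 were at 0. The part of these cell types in the levels of the Crisp genes was not tested. Crisp2 of the testis was lower in every old library than in every young one, with a log2 difference of -0.09 (SE 0.05, edgeR adjusted p = 0.520), in a region where 3.23% of all genes were lower without overlap.

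Whether the age effect differed between regions was tested in one fit of all 56 libraries. The 6 interaction terms together passed for Crisp4 (edgeR adjusted p = 0.000297) and Crisp2 (0.0416) but not for Crisp3 (0.0654) or Crisp1 (0.132), in a test passed by 20.2% of all genes. The joint call of Crisp2 was lost without Gm42418 (edgeR adjusted p = 0.0755), with the size factors of DESeq2 (0.0623), with edgeR's own filter on low counts (0.0535) and without the libraries numbered 1, 2 or 4 (0.107, 0.404 and 0.128). Over all alternatives it ran from 0.00603 to 0.404, with the lowest value without the 4 libraries that stood apart. The joint call of Crisp4 was lost over the epididymis alone and kept under the other alternatives run. Crisp3 passed with the size factors of DESeq2, edgeR's own filter or library size alone (edgeR adjusted p = 0.0455, 0.0332 and 0.0446, from 0.0332 to 0.412 over all alternatives). Crisp1 passed without the 4 libraries that stood apart (edgeR adjusted p = 0.000161, from 0.000161 to 0.467 over all alternatives). For single regions against the mean of the other 6, Crisp2 of the initial segment passed with a difference of -2.28 on the log2 scale (SE 0.58, edgeR adjusted p = 0.0207, 1.9% of all genes), from a change of -2.11 there and a mean of 0.17 elsewhere. Crisp4 of the efferent ductules also passed (edgeR adjusted p = 0.0447, 3.76% of all genes), which rests on the 113 reads of 2 old libraries against none. The call of Crisp2 in the initial segment was lost without the libraries numbered 1, 2 or 4 (edgeR adjusted p = 0.0640, 0.380 and 0.132, with values over all alternatives from 0.00145, without the 4 libraries that stood apart, to 0.380). That of Crisp4 was lost without Gm42418, without the libraries of any one number and without the 4 libraries that stood apart (edgeR adjusted p of 0.0932 to 1, with values from 1.13e-06 to 1 over all alternatives, DESeq2 included). No member passed in the testis (0.0649% of all genes), caput (6.94%), corpus (0.124%), cauda (2.3%) or vas deferens (7.7%). For Crisp3 and Crisp4 the mean of the other 6 includes the efferent ductules, whose young group had no read of either gene. Their single-region tests elsewhere cannot decide, because that age effect cannot be estimated. Over the 4 epididymal regions alone, the 3 interaction terms together passed for Crisp2 (edgeR adjusted p = 0.0222, 7.55% of all genes) but not for Crisp4 (0.146), Crisp3 (0.0804) or Crisp1 (0.198), a fit that was added after the data had been seen.

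The other genes of the pathway were read from lists of the CAP superfamily, of ion channels and of gamete interaction. Of the 11 other CAP genes, Glipr1l1, Glipr1l2 and Glipr1l3 were highest in the testis at both ages, like Crisp2, with 77.5, 26.9 and 16.8 CPM at 3 months. None of the 11 was highest in the caput or corpus at either age. Of all genes, 28.8% at 3 months and 27.6% at 21 months met the region-specific rule in the testis. The share of all genes that were highest in each region was not counted, so no excess is read from these places. Across the 7 regions, Pi15 fell in 5 (efferent ductules, initial segment, caput, corpus and vas deferens), Crispld2 in 4 (testis, caput, cauda and vas deferens) and Pi16 in 3 (initial segment, caput and corpus). Of all genes, 8.47% passed downward in the vas deferens, 5.05% in the caput, 3.01% in the initial segment, 2.98% in the efferent ductules, 1.47% in the corpus, 0.21% in the testis and 0.0583% in the cauda. In the corpus, where Crisp1 and Crisp4 fell, the log2 change was -1.80 for Pi15 (SE 0.21, edgeR adjusted p = 0.000246), -1.62 for Crispld1 (SE 0.21, edgeR adjusted p = 0.000356) and -1.23 for Pi16 (SE 0.17, edgeR adjusted p = 0.000864). Glipr1 of the vas deferens, which rose by 0.77 on the log2 scale (SE 0.15, edgeR adjusted p = 0.00672), was the only CAP gene of the 11 to pass upward in any region, and 11.4% of all genes passed upward there. The median log2 change of the tested CAP genes was lowest for the caput at -0.68, followed by the cauda at -0.66, the vas deferens at -0.58, the initial segment at -0.54, the efferent ductules at -0.38, the corpus at -0.18 and the testis at -0.01, against -0.04 to 0.02 over all genes. The sum of the 11 genes had no overlap between the ages in the initial segment, caput, corpus, cauda and vas deferens, where 5.99%, 8.64%, 5.26%, 4.62% and 12.1% of all single genes were lower without overlap. For the cauda it ran from 167 to 253 CPM at 3 months and from 59.2 to 78.5 CPM at 21 months.

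CatSper, the calcium channel of the sperm tail, is a channel that CRISP proteins are studied for, and 15 of the 17 listed channel genes were highest in the testis at both ages. In the initial segment, where 3.01% of all genes passed downward, 3 of the 16 tested fell (Catsper1, Catspere1 and Catsperz, with log2 changes of -3.72, -3.38 and -2.29) and none rose. Of the 16 genes of gamete interaction 15 were highest in the testis. For both lists the share of all genes highest in the testis was again not counted. In the initial segment 4 of the 16 tested gamete genes fell (Adam2, Zpbp2, Adam3 and Spesp1), none rose and 12 did not pass. Outside the initial segment few genes of either list passed. Of the channel genes, Catsper3 rose in the caput (1.52 on the log2 scale), Catspere1 and Ryr1 rose in the vas deferens (2.41 and 2.08) and Ryr3 changed by -0.80 in the cauda. Of the gamete genes, Zpbp rose in the caput (0.58) and Zan in the corpus (0.84), while Spaca6 of the caput changed by -0.60. In these regions 3.09% of all genes passed upward and 5.05% downward in the caput, 1.5% upward in the corpus, 11.4% upward in the vas deferens and 0.0583% downward in the cauda. In the testis itself none of the 17 channel genes and none of the 16 gamete genes passed, where 0.563% of all genes did. The 5-alpha reductase gene Srd5a1, whose enzyme makes the stronger androgen, was highest in the corpus (47.7 ± 2.29 CPM at 3 months and 53.7 ± 1.57 CPM at 21 months, SD, n = 4 each). Neither Srd5a1 nor Srd5a2, the gene of a related enzyme, passed with age in any region.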

How the data were processed

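Total RNA of each region was made into stranded libraries after ribosomal RNA removal (TruSeq) and read in pairs of 150 bases. The labels name TRIzol for the extraction and the study's methods name an RNeasy kit. The authors trimmed reads with cutadapt, aligned them to mm10 (GRCm38) with HISAT2 and deposited raw HTSeq counts per Ensembl gene. Versions, the annotation release and the counting mode are not given in the sources used here. No value was normalized by the authors, every column matched a library, and symbols came from GENCODE M21 (53274 of 53379 genes). The labels alone set the groups, and the floors and shares given cover counting error only.

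The members and gene lists were chosen with earlier results of these data known. The genes named were the 4 members, the 3 protein-coding genes most correlated with each, annotated neighbours within 200 kb, and the called genes of the lists. Some list genes and cell markers that were not called, such as Srd5a1, Srd5a2 and Glipr1l1, are named as well. One listed gene is not reported here.

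Ages were compared per region (8 libraries) and regions per age (28 libraries) with edgeR's quasi-likelihood test (edgeR 4.0.16, R 4.3.3), TMM scaling, at least 10 counts in total, and Benjamini-Hochberg adjustment over all genes tested, called at 0.05. Standard errors are Wald errors of that model. DESeq2 1.42.0, other scalings and filters, a replicate block, leaving out libraries, the study's rule and a table without Gm42418 were alternatives. Leaving out the 4 libraries that stood apart and the fit of the epididymis alone were added after seeing the data. The scripts were tested on simulated counts. Between same-numbered libraries of the 2 ages, no region of 7 had every correlation of deviations over 0.1, nor did more than 1 of 21 pairs of regions at either age, so the numbers were not taken to pair libraries. No library duplicated another.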

Additional observations from a re-analysis of the deposited data

Results flagged for a closer look

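In groups of 4 libraries, the highest or lowest value was compared with the spread of the other three by Dixon's ratio. Of 48 groups of the Crisp genes, 2 passed its 95% critical value, which chance alone passes in about 1 of 20 groups. One was Crisp2 in the efferent ductules at 3 months, where the third library had 20.7 CPM against 2.74 to 4.09 CPM and also the most germ cell RNA of its group (365 CPM of 16 markers, against 85.7 to 101 CPM). The other was Crisp2 in the vas deferens at 21 months, where the second library had 9.89 CPM against 3.31 to 4.39 CPM, with 142 CPM of the germ cell markers against 46.7 to 93.0 CPM. The part of germ cell RNA in either value was not tested.

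The age effect differed between regions for Crisp2 (edgeR adjusted p = 0.0416 over 6 interaction terms) and for Crisp4 (edgeR adjusted p = 0.000297). For Crisp2 the alternatives ran from 0.00603, without the 4 libraries that stood apart, to 0.404 (edgeR adjusted p). Taken singly, the initial segment differed from the mean of the other regions by -2.28 on the log2 scale for Crisp2, where the sum of the germ cell markers was also lower at 21 months. The efferent ductules differed by 7.52 for Crisp4, a fitted value that depends on the prior count because the young group had no read, and the 113 old reads lay in 2 libraries with epididymal marker RNA. Over the 4 epididymal regions alone Crisp4 did not pass (edgeR adjusted p = 0.146). The single-region call of Crisp2 was lost without the libraries numbered 1, 2 or 4, and that of Crisp4 without Gm42418, without the libraries of any one number or without the 4 libraries that stood apart.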

How the results depend on the processing

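The 4 age calls became 2 with all 56 libraries in one fit, in which Crisp2 of the initial segment kept its call, the other 3 were lost and Crisp4 of the efferent ductules was added. At an unadjusted p under 0.05 with a 1.5-fold change there were 10. The age calls ran from 1 to 5 when single libraries or those of 1 number were left out. There was 1 without the libraries numbered 2 or those numbered 3, and 2 without the second old library of the corpus. The setting without the 4 libraries that stood apart is not in this range, as they were chosen after their values were seen. The calls between regions ran from 58 to 70 around 66 at 3 months and from 62 to 74 around 72 at 21 months. The 8 region-specific calls fell to 2 against each other region in turn. The 2 calls of the joint interaction test became 1 without Gm42418 (Crisp2 lost) and 1 over the epididymis alone (Crisp4 lost), with 1 to 2 without a replicate number, and the 2 calls of single regions became 1 without Gm42418 (Crisp4 lost), with 0 to 1 without a replicate number. The cause was not tested.

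The direction of Crisp1 in the efferent ductules turned to -2.24 (log2) without the 4 libraries that stood apart. Crisp2 there turned to 1.38 in the same setting, to 0.17 under the replicate block, to 1.05 without the libraries numbered 3 and to 0.82 without the third young library. When only single libraries or those of 1 number were left out, it ran from -0.77 to 1.05. Crisp2 in the vas deferens turned to -0.018 without Gm42418, -0.020 without the libraries numbered 1, -0.15 without the first or the fourth young library and -0.33 without the second old one, which was the lowest of a range up to 0.80. Crisp4 in the initial segment turned to -0.023 in one fit of all libraries. Crisp3 in the caput turned to 0.039 without the libraries numbered 4 and 0.093 without the fourth young one (range -0.55 to 0.093), Crisp2 in the corpus to -0.061 without the fourth old library (range to 0.35), and Crisp1 in the cauda to -0.033 without the second old library (range to 0.48). None of these passed with all libraries.

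With the replicate number as a block there were 6 age calls, Crisp1 in the caput and Crisp4 in the efferent ductules being added, and 66 and 71 calls between regions, 8 region-specific calls and 2 and 2 interaction calls. With library size alone as the scaling, the median change of all genes moved from -0.04 to -0.38 in the efferent ductules, from -0.01 to 0.19 in the caput and from -0.01 to -0.17 in the corpus. The genes called higher and lower were then 405 and 4881 in the efferent ductules (1039 and 774 with TMM) and 154 and 350 in the corpus (373 and 365). Crisp3 had 465 reads in all 56 libraries.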
